A study of Homo sapiens with 6 samples.

Results

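In all, 10 genes of the smooth-muscle-type contractile apparatus were followed: caldesmon (CALD1), transgelin and its relative (TAGLN, TAGLN2), smooth muscle alpha-actin (ACTA2), a pair of tropomyosins (TPM1, TPM2), a myosin regulatory light chain (MYL9) and the calponins (CNN1, CNN2, CNN3). They were chosen by name and matched by symbol, and all 10 were found among the 60675 genes of the count table and were among the 16996 genes tested. The libraries came from PANC1, an established human pancreatic cancer line grown in serum-containing medium. The RARG-KO group had 3 libraries of PANC1 cells that had received a plasmid with Cas9 and a pair of guide RNAs flanking a part of RARG, followed by puromycin selection, expansion of individual clones and genotyping, per the labels. The WT group had 3 libraries of wild-type PANC1 cells, for which the labels give no treatment. How many clones the RARG-KO libraries came from is not stated in the labels, and differences between a clone and its parent line cannot be told apart from those of the RARG edit.

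In smooth muscle, calcium activates myosin light chain kinase, which phosphorylates the regulatory light chain of myosin and so allows myosin heads to pull on actin. Tropomyosin lies along the actin filament, and caldesmon and calponin bind actin and restrain the myosin ATPase. Transgelin, also called SM22-alpha, binds and bundles actin. Many of these genes are also expressed in non-muscle cells, where their products stabilise stress fibres, and in muscle several are activated by serum response factor (SRF) with its actin-sensing partners, the myocardin-related factors, through a short DNA element called the CArG box.

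RARG itself had 28.4, 24.1 and 28.5 CPM (reads scaled to a common library size, with TMM factors for composition) in RARG-KO replicates 1, 2 and 3, against 39.1, 40.6 and 41.6 CPM in WT. It was lower in every RARG-KO library (log2 fold change -0.58 ± 0.07, SE; adjusted p = 1.66e-07, edgeR quasi-likelihood fit with Benjamini-Hochberg adjustment), and since a count sums the whole gene, this checks the labels only in part. Library totals ran from 30115051 to 31608089 counts in RARG-KO and from 29386408 to 30605114 in WT. The line was checked against marker lists. Of 10 epithelial and ductal markers, 9 were tested. The list summed to 1468 to 1560 CPM in RARG-KO and 3170 to 3246 CPM in WT, so epithelial markers were present in both groups. Keratin genes made up most of this sum, with KRT8 alone at 901 CPM in RARG-KO and 1927 CPM in WT. The lower sum in RARG-KO is therefore mainly that of keratins. Of the tested markers 7 fell and 2, CDH1 and CLDN7, rose. Defining markers of smooth muscle were near absent, with 2.09 to 2.38 CPM summed over 6 genes in RARG-KO and 1.497 to 2.77 CPM in WT, and with no read of MYOCD or CASQ2 in any library.

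The test called 8 of the 10 genes, with 5 higher and 3 lower in RARG-KO than in WT, and in the same 8 no RARG-KO library overlapped a WT library. Across all genes tested 58.0% differed in the same edgeR fit, 28.7% higher and 29.3% lower, and in 62.6% the libraries did not overlap, so a changed gene is common in this comparison. CALD1, CNN1, TPM2, TAGLN and TPM1 rose. TAGLN2, CNN3 and ACTA2 fell. CNN2 and MYL9 did not pass the test. The median log2 fold change was 0.17 over the 10 genes and 0.01 over all genes tested. Only CALD1, CNN1 and ACTA2 changed at least 2-fold, a size that 12.2% of all genes tested reached. ACTA2 enters these counts only because its WT libraries passed the filter on low counts, as set out below. Summed over the 10 genes, the level was 1843, 1854 and 1845 CPM in RARG-KO replicates 1, 2 and 3, against 1630, 1554 and 1580 CPM in WT. In these bulk samples, a change in the share of cells that express a gene and a change in the amount per cell cannot be told apart.

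**Figure D1:**
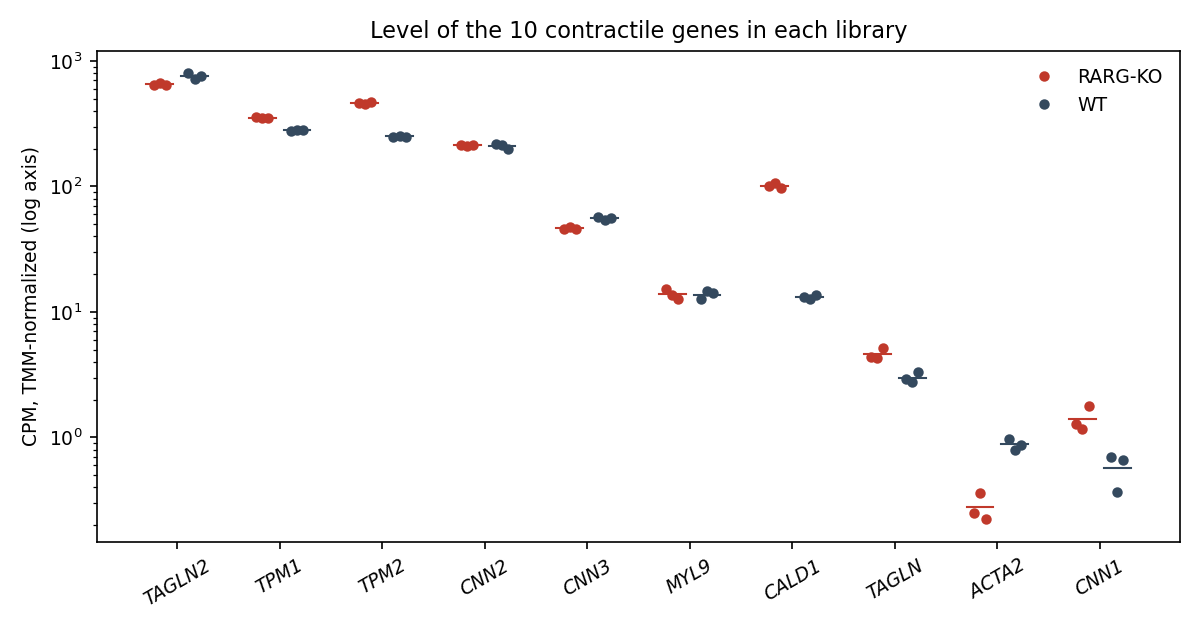
Levels of the 10 genes in each library. The vertical axis is TMM-normalized CPM on a log scale, points are libraries (RARG-KO left of WT, 3 each) and short lines are group means. CALD1 sits near 100 CPM in RARG-KO and near 13 CPM in WT, while the points of MYL9 and CNN2 overlap.

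Caldesmon showed the largest change of the 10. CALD1 (ENSG00000122786, chromosome 7, 134744252 to 134970728, GRCh38) had 3214, 3247 and 3065 reads in RARG-KO replicates 1, 2 and 3, against 381, 382 and 412 reads in WT. On the normalized scale these were 100.4, 106 and 97.5 CPM in RARG-KO, against 13.2, 12.7 and 13.7 CPM in WT. Every RARG-KO library lay far above every WT library, and libraries within a group differed by little (coefficient of variation 4.12% in RARG-KO and 3.64% in WT). The fold change was 7.66, with a 95% interval of 7.07 to 8.30 (log2 2.94 ± 0.06, SE; edgeR adjusted p = 4.78e-20). Among the 16996 genes tested, 112 had a higher fitted log2 fold change. CALD1 is known to give a long form in smooth muscle and short forms in other cells. GENCODE 29 lists 24 transcripts of it, and gene counts do not tell which of them rose.

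The genes beside CALD1 did not show a change of this size. BPGM, which encodes an enzyme of 2,3-bisphosphoglycerate synthesis and lies just before it among the tested protein-coding genes, had 24.7 ± 1.81 CPM in RARG-KO and 20.4 ± 0.16 CPM in WT (SD, n = 3; log2 0.28 ± 0.07, SE; edgeR adjusted p = 0.00137). AGBL3, the next gene after it, had 2.38 ± 0.34 CPM in RARG-KO and 1.45 ± 0.37 CPM in WT (log2 0.71 ± 0.22, SE; edgeR adjusted p = 0.00784). Over the 40 nearest tested protein-coding genes, 20 on each side, the median log2 fold change was -0.02, with 10 higher and 17 lower. These neighbours were chosen by position.

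Genes with a pattern like that of CALD1 were sought among 9406 other protein-coding genes with a mean of at least 10 CPM, by the distance between log2 CPM values over the 6 libraries, each gene centred on its own mean. The 5 nearest were FOXP1, HHIPL2, SLC2A12, ID3 and MUC5AC, at distances of 0.224 to 0.306. Of these, ID3, which encodes an inhibitor of helix-loop-helix factors, had 284 ± 13.5 CPM in RARG-KO and 38.5 ± 2.76 CPM in WT, and MUC5AC, a gene of a secreted mucin, had 36.5 ± 2.0 CPM in RARG-KO and 4.25 ± 0.44 CPM in WT (SD, n = 3). Since the measure rests on a pair of groups, it picks genes with a fold change near that of CALD1.

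Windows of promoter sequence were taken from RefSeq (GRCh38.p14), which gave 16 windows of 300 bases for 8 of the 10 genes. TAGLN and MYL9 were not matched. The windows were searched on both strands for the CArG box in its strict consensus with no mismatch, for GGAATG, which the TEAD factors recognise, and for AGGTCA, the half-site of retinoid receptors. The strict CArG box was found in 1 of the 16 windows, that of CNN2, and in 1.29% of 35116 windows of all genes. CArG elements that depart from the consensus were not searched for, so a window with no match may hold one. GGAATG was found in 4 windows, of CALD1, CNN3 and ACTA2, and in 14.0% of all windows. AGGTCA was found in none of the 16 and in 13.8% of all windows. No member window held more than 1 match, and a match is only a description of the letters. The 250 bases before the start are shown for both CALD1 windows with a match, because CALD1 changed most, and for CNN1 and CNN2, a related pair of which CNN1 rose and CNN2, with the CArG box, did not pass the test. Capitals mark GGAATG or its reverse complement in CALD1 and the CArG box in CNN2, and CNN1 has no capitals because none of the motifs was found. Each gene lies on the plus strand, and which start the cells used is not shown by the counts.
CALD1 chr7:134745217-134745466: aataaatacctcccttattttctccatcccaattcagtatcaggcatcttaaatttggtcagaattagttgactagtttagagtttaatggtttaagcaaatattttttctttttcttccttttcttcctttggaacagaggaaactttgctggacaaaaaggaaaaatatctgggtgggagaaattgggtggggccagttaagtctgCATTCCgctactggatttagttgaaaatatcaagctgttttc
CALD1 chr7:134779384-134779633: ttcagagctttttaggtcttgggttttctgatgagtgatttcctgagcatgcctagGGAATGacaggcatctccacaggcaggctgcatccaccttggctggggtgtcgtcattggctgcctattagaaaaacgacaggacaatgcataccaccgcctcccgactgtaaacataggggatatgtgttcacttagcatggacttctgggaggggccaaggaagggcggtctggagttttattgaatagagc
CNN1 chr19:11538601-11538850: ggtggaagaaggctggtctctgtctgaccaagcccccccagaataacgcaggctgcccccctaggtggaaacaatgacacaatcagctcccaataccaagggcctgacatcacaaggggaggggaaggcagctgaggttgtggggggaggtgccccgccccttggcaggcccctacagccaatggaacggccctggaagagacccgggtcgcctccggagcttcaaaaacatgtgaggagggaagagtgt
CNN2 chr19:1026358-1026607: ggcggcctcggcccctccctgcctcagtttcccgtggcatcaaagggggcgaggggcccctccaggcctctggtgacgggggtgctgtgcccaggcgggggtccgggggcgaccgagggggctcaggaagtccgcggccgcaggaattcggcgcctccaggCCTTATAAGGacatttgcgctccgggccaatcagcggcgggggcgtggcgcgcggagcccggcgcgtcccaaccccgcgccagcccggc
In the CALD1 windows the GGAATG match starts 42 and 194 bases before the annotated start, and in CNN2 the CArG box starts 89 bases before it.

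Tropomyosins form coiled coils along actin, and the make-up of the tropomyosin pool was different in the knockout. TPM2 (ENSG00000198467, chromosome 9, 35681992 to 35690121) had 458, 458 and 470.0 CPM in RARG-KO replicates 1, 2 and 3, against 249, 253 and 247 CPM in WT. The groups lay far apart, with a fold change of 1.85 (95% interval 1.77 to 1.93; log2 0.89 ± 0.03, SE; edgeR adjusted p = 4.99e-16). In absolute terms this was the largest gain of the 10 genes, 212 CPM. TPM1 (ENSG00000140416, chromosome 15, 63042632 to 63071915) had 355, 349 and 352 CPM in RARG-KO, against 274, 281 and 283 CPM in WT. It was higher in every RARG-KO library, by 1.26-fold (log2 0.33 ± 0.03, SE; edgeR adjusted p = 4.34e-09). The antisense gene TPM1-AS had 51 reads in RARG-KO and 60 in WT, few beside the 33155 and 24876 reads of TPM1.

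The remaining tropomyosin genes, TPM3 and TPM4, moved less. TPM3 had 699 ± 11.9 CPM in RARG-KO and 803 ± 31.6 CPM in WT (SD, n = 3; log2 -0.20 ± 0.03, SE; edgeR adjusted p = 9.58e-06). TPM4 had 494 ± 4.38 CPM in RARG-KO and 448 ± 10.2 CPM in WT (log2 0.14 ± 0.03, SE; edgeR adjusted p = 0.000293). Levels of different genes were compared per length, as CPM per kilobase of the union of annotated exons. On this scale TPM2 made up 45.9% ± 0.45 of the tropomyosin sum in RARG-KO and 31.3% ± 0.77 in WT, and TPM3 26.9% ± 0.35 in RARG-KO and 38.8% ± 1.08 in WT (SD, n = 3). TPM4 made up 18.4% ± 0.18 in RARG-KO and 21.1% ± 0.45 in WT. The share of TPM1 was 8.82% ± 0.14 in RARG-KO and 8.82% ± 0.21 in WT. The sizes of the shares depend on the length used. With the longest transcript as length, TPM2 was 41.0% in RARG-KO and 27.7% in WT, and TPM1 12.5% in RARG-KO and 12.4% in WT. For TPM2, TPM3 and TPM4 the shares of the groups did not overlap, and the exact permutation p (testing both directions) was 0.1 for each, the smallest that 3 against 3 libraries allow. Shares are parts of the same sum, so these are not separate results. That of TPM4 fell although its level rose.

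**Figure D2:**
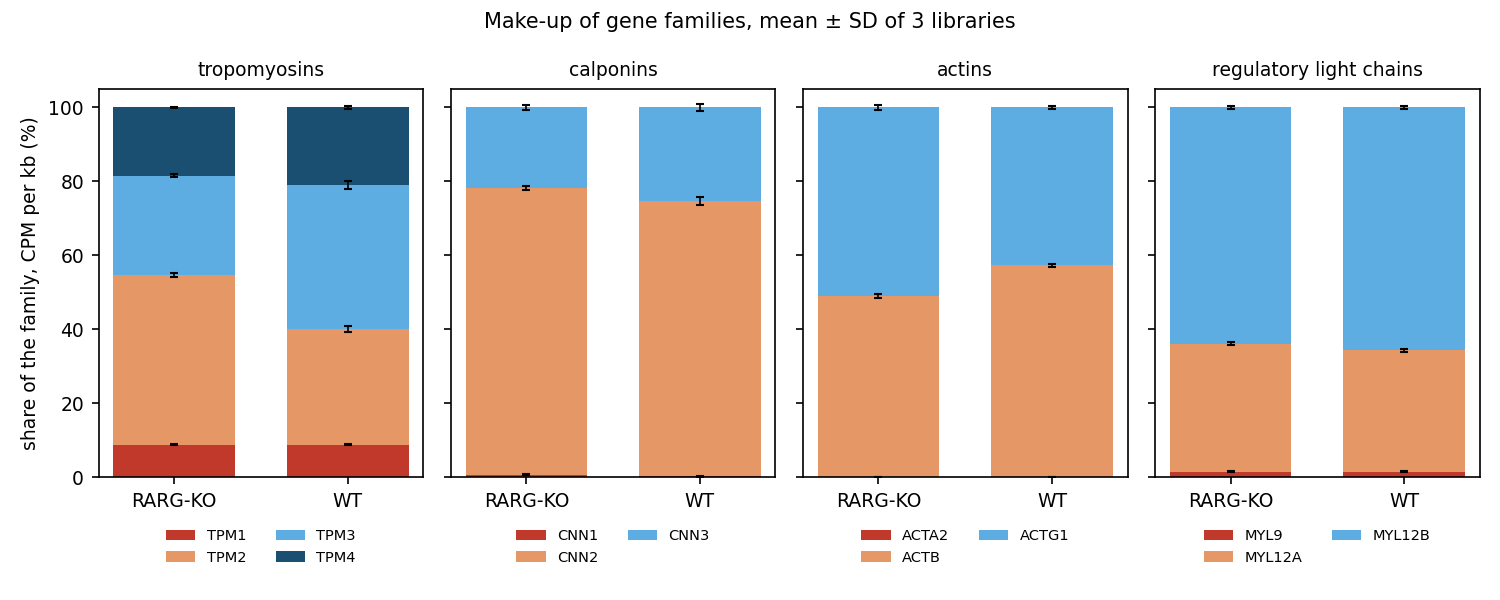
Make-up of gene families in RARG-KO (left bar) and WT (right bar). Stacked bars give each gene's share of the family's summed CPM per kilobase in percent, as the mean of 3 libraries with the SD drawn at the top of each part. TPM2 takes 45.9% of the tropomyosin sum in RARG-KO and 31.3% in WT, whereas CNN1, ACTA2 and MYL9 are thin or invisible in both.

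The calponins are actin-binding proteins, of which CNN1 is the smooth muscle form and CNN2 and CNN3 are widely expressed. They went in different directions. CNN1 (ENSG00000130176, chromosome 19, 11538717 to 11550323) had 1.28, 1.17 and 1.78 CPM in RARG-KO replicates 1, 2 and 3, against 0.692, 0.367 and 0.665 CPM in WT. These rest on 36 to 56 reads per RARG-KO library and 11 to 20 per WT library. The groups did not overlap, and the fold change of 2.45 had a wide 95% interval, 1.58 to 3.80 (log2 1.29 ± 0.30, SE; edgeR adjusted p = 0.000999). CNN2 (ENSG00000064666, chromosome 19, 1026581 to 1039068) had 214, 209 and 213 CPM in RARG-KO, against 218, 215 and 200.2 CPM in WT. The libraries overlapped, and the fold change of 1.00 had an interval of 0.955 to 1.06 (edgeR adjusted p = 0.882). CNN3 (ENSG00000117519, chromosome 1, 94896949 to 94927278) had 45.8, 47.7 and 45.6 CPM in RARG-KO, against 57.2, 54.2 and 55.7 CPM in WT. It fell to 0.832 of the WT level (log2 -0.26 ± 0.05, SE; edgeR adjusted p = 8.47e-05). Per length, CNN2 was the bulk of the family in both groups, at 77.6% ± 0.58 in RARG-KO and 74.5% ± 0.99 in WT, and CNN1 was 0.652% ± 0.148 in RARG-KO and 0.257% ± 0.081 in WT (SD, n = 3).

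Of the transgelins, the widely expressed TAGLN2 was the most abundant of the 10 genes and the smooth muscle form TAGLN one of the rarest. TAGLN2 (ENSG00000158710, chromosome 1, 159918107 to 159925732) had 649, 665 and 647 CPM in RARG-KO replicates 1, 2 and 3, against 801, 719 and 761 CPM in WT. It fell to 0.860 of the WT level without overlap (log2 -0.22 ± 0.03, SE; edgeR adjusted p = 1.08e-05). TAGLN (ENSG00000149591, chromosome 11, 117199321 to 117204782) had 4.37, 4.30 and 5.19 CPM in RARG-KO, against 2.91, 2.77 and 3.33 CPM in WT. It rose by 1.54-fold (95% interval 1.25 to 1.90; log2 0.62 ± 0.14, SE; edgeR adjusted p = 0.000931). TAGLN shares 446 exonic bases with PCSK7, a proprotein convertase gene of the other strand, which had 4409 reads in RARG-KO and 3692 in WT beside the 435 and 267 reads of TAGLN. PCSK7 itself was higher in RARG-KO (log2 0.17 ± 0.05, SE; edgeR adjusted p = 0.00701). Without strand the reads of both cannot be told apart, and the part of PCSK7 in the rise of TAGLN was not tested. TAGLN3, a neuronal form, had 0 reads in RARG-KO and 1 in WT.

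Smooth muscle alpha-actin, the usual marker of myofibroblasts and smooth muscle, was close to absent. ACTA2 (ENSG00000107796, chromosome 10, 88935074 to 88991339) had 8, 11 and 7 reads in RARG-KO replicates 1, 2 and 3, against 28, 24 and 26 reads in WT. In CPM these were 0.2499, 0.358 and 0.223 in RARG-KO, against 0.969, 0.801 and 0.865 in WT, without overlap. The log2 fold change was -1.65 ± 0.35 (SE; edgeR adjusted p = 0.000446). ACTA2 passed the filter on low counts through the WT libraries, with all 3 at or above its limit of 0.328 CPM, against 1 of 3 in RARG-KO, so the filter kept the gene because of its WT level. It shares 380 exonic bases with FAS, the gene of a death receptor, and 516 with the antisense gene ACTA2-AS1, both on the other strand. FAS had 2.50 ± 0.32 CPM in RARG-KO and 7.17 ± 0.58 CPM in WT (SD, n = 3; log2 -1.52 ± 0.13, SE; edgeR adjusted p = 3.75e-09). ACTA2-AS1 had 11 reads in RARG-KO and 66 in WT (log2 -2.63 ± 0.44, SE, edgeR adjusted p = 3.26e-05). Its RARG-KO libraries, at 0.094 to 0.159 CPM, were all under the filter limit, so it too was tested because of its WT level. All 3 overlapping genes had lower levels in RARG-KO. Their reads cannot be told apart without strand, so these are not separate observations of a fall.

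The actins of non-muscle cells made up nearly all of the measured actin. ACTB had 4702 ± 67.1 CPM in RARG-KO and 5264 ± 66.5 CPM in WT, and ACTG1 had 4165 ± 116 CPM in RARG-KO and 3333 ± 32.4 CPM in WT (SD, n = 3). ACTB fell (log2 -0.16 ± 0.02, SE; edgeR adjusted p = 4.69e-06) and ACTG1 rose (log2 0.32 ± 0.03, SE; edgeR adjusted p = 6.82e-10). Per length, ACTG1 was 51.0% ± 0.58 of the sum of ACTA2, ACTB and ACTG1 in RARG-KO and 42.7% ± 0.42 in WT (SD, n = 3). With the longest transcript as length it was 46.8% in RARG-KO and 38.6% in WT, so which of ACTB and ACTG1 was the more abundant in RARG-KO depends on the length used. Actin genes share near-identical coding sequence, and how reads were divided between these genes is therefore uncertain.

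The regulatory light chain MYL9 showed no change that passed the test. MYL9 (ENSG00000101335, chromosome 20, 36541484 to 36551447) had 15.2, 13.7 and 12.6 CPM in RARG-KO replicates 1, 2 and 3, against 12.6, 14.6 and 14.1 CPM in WT. The libraries overlapped, and the fold change of 1.01 had a 95% interval of 0.889 to 1.14 (edgeR adjusted p = 0.940). The light chains of non-muscle myosin were far more abundant. MYL12A had 354 ± 3.95 CPM in RARG-KO and 343 ± 1.70 CPM in WT (SD, n = 3; edgeR adjusted p = 0.171). MYL12B had 391 ± 5.64 CPM in RARG-KO and 409 ± 6.86 CPM in WT (edgeR adjusted p = 0.0664). Per length, MYL9 was 1.55% ± 0.14 of the 3 light chain genes in RARG-KO and 1.51% ± 0.11 in WT (SD, n = 3). With the longest transcript as length, its share was 0.807% in RARG-KO and 0.796% in WT.

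Ordered by level per length, the 10 genes kept nearly the same places in both groups. In RARG-KO the order was TAGLN2 (263 CPM per kilobase of exon), TPM2 (142), CNN2 (58.2), TPM1 (27.3), CNN3 (16.3), CALD1 (10.3), MYL9 (4.90), TAGLN (1.18), CNN1 (0.489) and ACTA2 (0.0931). In WT it was TAGLN2 (306 CPM per kilobase), TPM2 (77.0), CNN2 (57.9), TPM1 (21.7), CNN3 (19.6), MYL9 (4.87), CALD1 (1.34), TAGLN (0.766), ACTA2 (0.295) and CNN1 (0.199). CALD1 was thus above MYL9 in RARG-KO and below it in WT, and CNN1 was above ACTA2 in RARG-KO and below it in WT. Within a group, each gene was above the next one in every library. With the longest transcript as length, CALD1 stood at 23.6 CPM per kilobase in RARG-KO, above CNN3 at 21.4, and the WT order was the same. TPM1 then stood at 89.0 in RARG-KO, close under CNN2 at 93.5, so distances between genes depend on the length used.

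**Figure D3:**
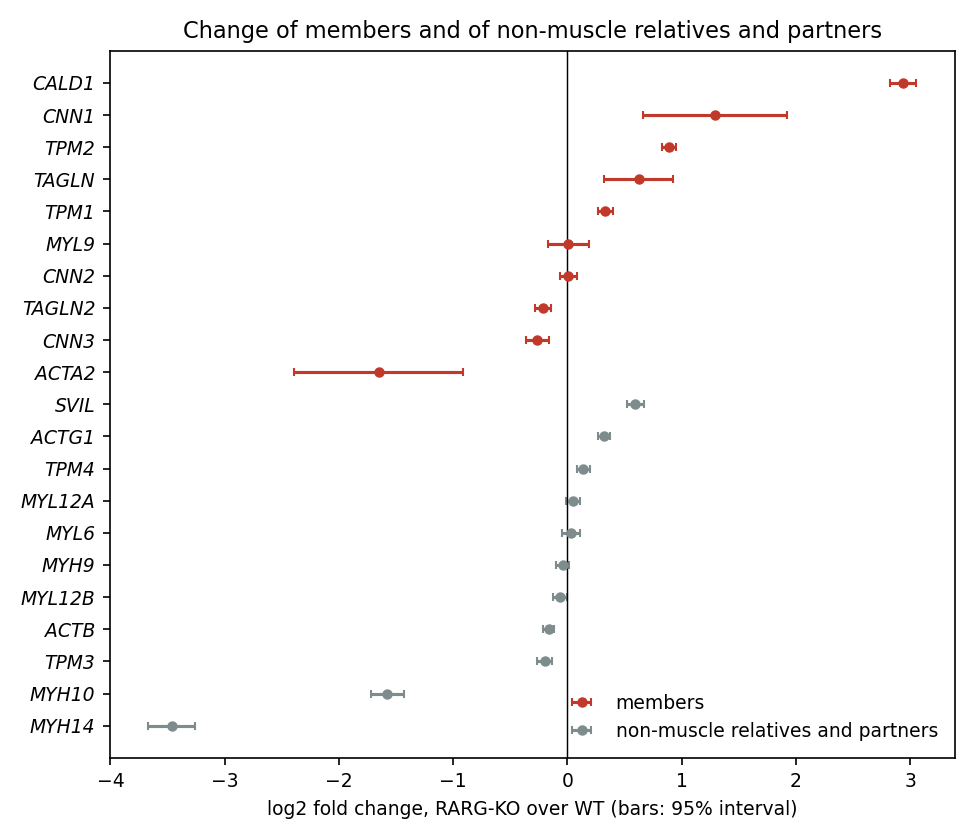
Log2 fold changes of the 10 genes (top) and of 11 tested genes of non-muscle relatives and partners (below), RARG-KO over WT, with 95% intervals from the edgeR fit. CALD1 lies at 2.94 and ACTA2 at -1.65, while MYL9 and CNN2 lie at 0.01; among the relatives MYH14 lies at -3.46.

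Among the 11 tested genes of non-muscle relatives and partners, 3 rose, 4 fell and 4 did not pass. The share called, 63.6%, was near the 58.0% of all genes tested. The list had a median log2 fold change of -0.04. The rises included SVIL, which encodes the actin- and myosin-binding protein supervillin, with 207 ± 6.18 CPM in RARG-KO and 137 ± 1.70 CPM in WT (SD, n = 3; log2 0.59 ± 0.03, SE; edgeR adjusted p = 4.23e-12). The heavy chains of non-muscle myosin moved unequally. MYH9, the most abundant, had 1458 ± 50.05 CPM in RARG-KO and 1502 ± 28.1 CPM in WT and did not pass (edgeR adjusted p = 0.209). MYH10 fell to 14.3 ± 0.62 CPM in RARG-KO, against 42.6 ± 3.16 CPM in WT (SD, n = 3; log2 -1.58 ± 0.07, SE; edgeR adjusted p = 4.78e-14). MYH10 shares 72 exonic bases with NDEL1 of the opposite strand, and over all libraries NDEL1 had 12287 reads and MYH10 5139. MYH14 fell to 2.17 ± 0.08 CPM in RARG-KO, against 24.0 ± 1.55 CPM in WT (log2 -3.46 ± 0.10, SE; edgeR adjusted p = 3.86e-17). MYL6, an essential light chain, had 361 ± 22.6 CPM in RARG-KO and 353 ± 6.82 CPM in WT and did not pass (edgeR adjusted p = 0.493). MYL6 shares 514 exonic bases with SMARCC2 of the opposite strand, which had 27642 reads over all libraries against its 65425. SVIL shares 353 with SVIL-AS1 of the opposite strand, which had 3161 reads against its 31713.

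Other genes of the smooth muscle contractile programme did not follow CALD1 as a list. Of 20 such genes, 10 were tested, of which 3 rose, 6 fell and 1 did not pass. The share called was 90%, against 58.0% of all genes tested. The list had a median log2 fold change of -0.35, against 0.01 over all genes tested. SMTN, which encodes the stress fibre protein smoothelin, rose to 86.3 ± 3.73 CPM in RARG-KO, against 52.9 ± 3.46 CPM in WT (SD, n = 3; log2 0.71 ± 0.05, SE; edgeR adjusted p = 1.32e-10). CSRP2, a LIM protein gene (log2 0.57 ± 0.11), and LPP, a focal adhesion gene (0.19 ± 0.04), were the other rises (log2 ± SE). FHL1, a LIM protein gene of muscle, fell to 22.9 ± 1.49 CPM in RARG-KO, against 140.3 ± 1.23 CPM in WT (log2 -2.62 ± 0.05, SE; edgeR adjusted p = 2.41e-20), and PDLIM7 fell by a log2 of -1.02 ± 0.04. MYH11, the heavy chain of smooth muscle myosin, had 1.97 ± 0.27 CPM in RARG-KO and 1.58 ± 0.58 CPM in WT and did not pass (edgeR adjusted p = 0.277), and it overlaps NDE1, which had 10904 reads against its 325. The 10 genes not tested had at most 30 reads in a group.

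For regulators of light chain phosphorylation, 4 of 22 tested genes rose, 9 fell and 9 did not pass. The list had a median log2 fold change of -0.13, against 0.01 over all genes tested. The share called, 59.1%, was near the 58.0% of all genes tested. MYLK, the gene of myosin light chain kinase, had 21.5, 20.7 and 19.95 CPM in RARG-KO replicates 1, 2 and 3, against 37.7, 37.5 and 39.0 CPM in WT. It fell (log2 -0.88 ± 0.06, SE; edgeR adjusted p = 6.07e-11), and it is counted among the falls of the smooth muscle list too. ARHGEF2, an activator of RhoA (log2 -1.08 ± 0.04), and RHOB, a small GTPase (-0.96 ± 0.05), also fell (log2 ± SE). RHOA, another small GTPase, rose to 536 ± 9.11 CPM in RARG-KO, against 385 ± 7.69 CPM in WT (SD, n = 3; log2 0.48 ± 0.03, SE; edgeR adjusted p = 1.11e-11). CDC42BPG, a myosin-directed kinase gene (0.49 ± 0.09), and PPP1R12B, a myosin phosphatase subunit gene (0.27 ± 0.06), rose too.

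Listed genes of the SRF and myocardin-related factor pathway, the 10 contractile genes aside, fell more often than they rose. Of 31 genes, all tested, 6 rose, 21 fell and 4 did not pass. The rises include the cofactor genes MRTFA and MRTFB, and PDLIM7 is counted as a fall both here and in the smooth muscle list. The share called was 87.1%, against 58.0% over all genes tested (28.7% higher and 29.3% lower). The list had a median log2 fold change of -0.37, against 0.01 over all genes tested. It leaves out the 10 contractile genes, of which 5 rose and 3 fell, so it does not cover the whole output of SRF. SRF itself had 62.9 ± 6.46 CPM in RARG-KO and 63.8 ± 1.61 CPM in WT and did not pass (edgeR adjusted p = 0.790). Its cofactor genes MRTFA (log2 0.12 ± 0.04, SE; edgeR adjusted p = 0.0196) and MRTFB (0.14 ± 0.04; 0.00165) were slightly higher in RARG-KO. The call of MRTFA was lost with DESeq2 (adjusted p = 0.0573), and MRTFA shares 9 exonic bases with SGSM3 of the opposite strand. CCN1, a secreted matrix protein gene, fell to 308 ± 9.45 CPM in RARG-KO, against 1101 ± 22.0 CPM in WT (SD, n = 3; log2 -1.84 ± 0.03, SE; edgeR adjusted p = 6.82e-21). FHL2 (-1.07 ± 0.03) and MICAL2, an actin oxidase gene (-0.95 ± 0.03), fell as well (log2 ± SE). DSTN, the gene of the actin-depolymerising factor destrin, rose to 1100 ± 64.5 CPM in RARG-KO, against 546 ± 14.2 CPM in WT (log2 1.01 ± 0.04, SE; edgeR adjusted p = 1.32e-15). The rises of TGFB1I1 and CFL2 were 0.90 ± 0.07 and 0.51 ± 0.04 (log2 ± SE). A strict CArG box was found in 10 of 53 promoter windows of this list (18.9%), against 1.29% of windows of all genes. These windows belong to 8 of the 29 genes of the list that RefSeq matched. The genes were listed for their link to SRF, which acts through this box, so the higher share may follow from that choice. Whether genes with a box changed otherwise than the rest of the list was not tested.

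The position of the genes was set beside their change, since neighbouring genes moved together in some regions. For ACTA2, 34 of the 40 nearest tested protein-coding genes on chromosome 10 were lower in RARG-KO and 1 was higher, with a median log2 fold change of -0.83 beside -1.65 for ACTA2. For MYL9, 31 of 40 neighbours on chromosome 20 were lower and 4 higher, with a median of -0.43, whereas MYL9 lay at 0.01. For TPM2, 27 of 40 neighbours on chromosome 9 were higher and 6 lower, with a median of 0.34 beside 0.89. For the other 7 genes the median of the neighbours lay between -0.14 and 0.11. The part of such regional shifts in the change of a gene was not tested.

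**Figure D4:**
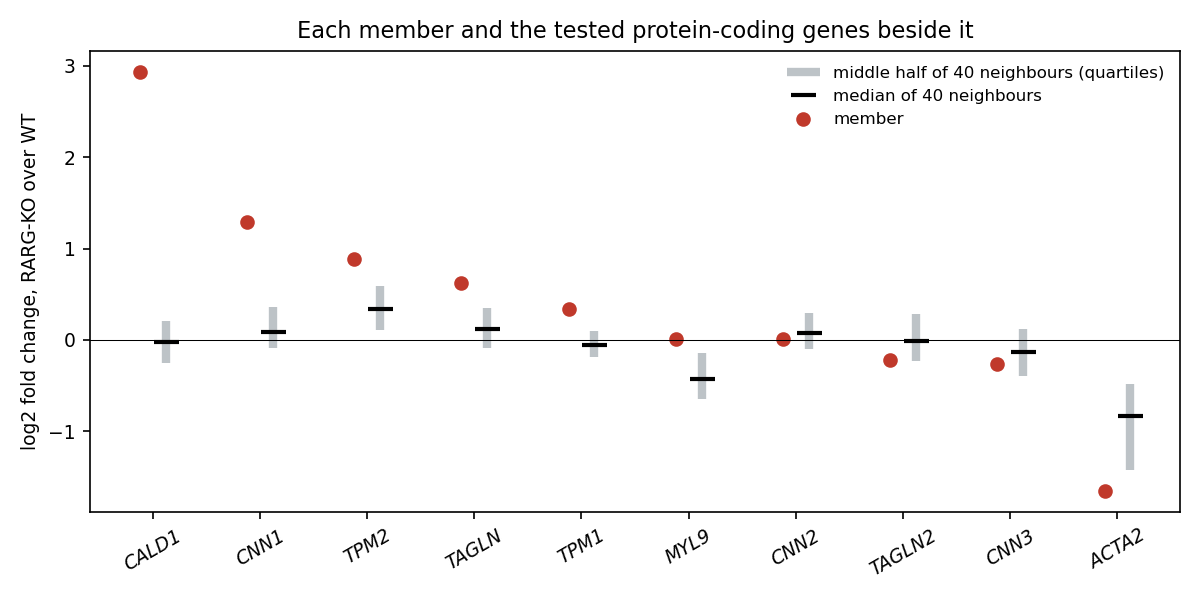
Log2 fold change of each gene (red point) beside its 40 nearest tested protein-coding genes on the same chromosome (black bar, median; grey bar, lower to upper quartile). CALD1 at 2.94 stands over a neighbour median of -0.02, and ACTA2 at -1.65 beside a neighbour median of -0.83.

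Markers of other cell types were also followed, and their part in the changes above was not tested. Of 10 fibroblast markers 3 were tested. Their summed level was 209.9 to 224 CPM in RARG-KO and 104.7 to 109 CPM in WT, almost all of it COL1A1, the gene of a collagen I chain, which had 214 ± 7.16 CPM in RARG-KO and 102 ± 2.69 CPM in WT (SD, n = 3; log2 1.07 ± 0.04, SE; edgeR adjusted p = 8.73e-16). THY1 rose (log2 1.34 ± 0.24, SE; edgeR adjusted p = 7.80e-05) and COL3A1 fell (-0.81 ± 0.16; 0.000210). The other 7 markers were near 0, with 27 reads of PDGFRB in RARG-KO and 12 in WT, 7 and 5 of COL1A2, 5 and 2 of LUM, 0 and 11 of FAP, 0 and 3 of PDGFRA, and none of DCN or PDPN in any library. Leukocyte markers summed to 0.293 to 0.764 CPM in RARG-KO and 0.969 to 1.06 CPM in WT over 6 genes, of which CD14 was tested and fell (log2 -1.06 ± 0.37, SE; edgeR adjusted p = 0.0194), a call that was lost with DESeq2 (adjusted p = 0.0887). Endothelial markers summed to 5.24 to 5.93 CPM in RARG-KO and 1.45 to 2.07 CPM in WT over 5 genes, of which KDR was tested and rose (log2 1.93 ± 0.16, SE; edgeR adjusted p = 1.12e-09). KDR made up nearly all of this sum in RARG-KO and most of it in WT, at 5.45 CPM in RARG-KO and 1.43 CPM in WT. VWF had 3 reads in RARG-KO and 28 in WT, and PECAM1 had 2 in RARG-KO and 7 in WT. CDH5 had 3 reads in RARG-KO and 0 in WT, and TEK had 4 in RARG-KO and 0 in WT.

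Processed copies could have taken reads of some members. GENCODE 29 names 14 pseudogene copies of CNN2, CNN3, TAGLN2 and TPM2, and none of these held more than 96 reads in a group. TAGLN2 had 61523 reads in RARG-KO and 67561 in WT, so the deposited counts put few reads on the copies. How reads that match both a gene and its copy were counted is not given. The low counts therefore cannot show whether members lost such reads.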

How the data were processed

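The authors deposited raw read counts for each gene, not normalized, from RNA-seq of 6 PANC1 libraries. Per the submitters' processing notes, the tools were DESeq2, featureCounts, Bowtie2 2.2.3 and HISAT2 2.1.0, with the builds GRCh38 and hg38. No source used here gives their settings, the annotation or whether counting used strand. The labels' extraction text also has a line on chromatin isolation, and the counts were taken as RNA counts. Libraries were grouped by sample title. Differences were tested with the quasi-likelihood test of edgeR 4.0.16 in R 4.3.3 (TMM factors, filterByExpr at its defaults, group as the only term) over 16996 genes, with Benjamini-Hochberg adjustment at 0.05; the script was tested on simulated data. CPM values are mean ± SD of 3 libraries, and an SE is the log2 fold change divided by the square root of F. Tried as alternatives were RLE and upper-quartile factors, no filter on low counts, a filter of at least 1 CPM in 3 libraries, DESeq2 1.42.0, a replicate block, leaving out each library and another gene length. Positions and lengths are those of GENCODE 29. Replicates differed by more than sampling noise (chi-square per degree of freedom 2.18 to 5.59). The labels do not say whether they were separate cultures, so p-values measure the spread between these libraries, which may be technical. The smallest level that 3 counts give in a library was 0.0937 to 0.104 CPM, a limit of counting error only. The members and lists were chosen with earlier results of these data known. Named were RARG, the members, up to 3 rising and 3 falling genes with the smallest adjusted p in each list, a fixed set of paralogs, cofactors and myosin genes, the 5 genes most like CALD1 and genes overlapping a member. Some were named after their values were seen, namely BPGM, AGBL3, SKIL, genes named as untested or at 0, and other-strand partners of genes outside the members.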

Additional observations from a re-analysis of the deposited data

How the results depend on the processing

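Under the 12 alternatives (RLE factors, upper-quartile factors, no filter, at least 1 CPM in 3 libraries, DESeq2, a replicate block and the removal of each library in turn), the 8 called genes kept their direction wherever they were tested, and 5 were called higher each time. The number called lower was 3 in each but one: with at least 1 CPM in 3 libraries it was 2, because ACTA2 was not tested there. Over these alternatives the log2 fold change of CALD1 ran from 2.91 to 2.97, of TPM2 from 0.88 to 0.92, of CNN1 from 1.05 to 1.45 (adjusted p up to 0.00969) and of ACTA2 from -1.87 to -1.52. MYL9 and CNN2 passed in none, and their values changed sign, at -0.06 to 0.08 and -0.03 to 0.04. Genes called higher numbered 4167 to 5454 and genes called lower 4568 to 5179. Leaving out a library gave 4431 to 4916 higher and 4648 to 5042 lower. With the replicate block 4546 genes were higher and 4712 lower. The labels do not say that the replicate numbers pair libraries. Same-numbered libraries had deviations from their group means that correlated at 0.014, -0.051 and -0.007. Of the 3 numbers, 0 had its own partner as the best match in both directions. With 3 libraries per group, these values show no sign of a pairing but cannot exclude one. With DESeq2 the calls of MRTFA (adjusted p = 0.0573), SKIL (0.203) and CD14 (0.0887) were lost, while FAP (0.0434) and VWF (0.0221), which the edgeR filter left out, were called lower. The other calls in the lists were the same. With the longest transcript as length, the levels of the 10 genes other than MYL9 were higher in both groups; in RARG-KO, TPM1 stood at 89.0 CPM per kilobase in place of 27.3, CALD1 at 23.6 in place of 10.3 and TPM2 at 292 in place of 142. Depth limits the rarest genes, ACTA2 and CNN1.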

Other observations

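Genes of TGF-beta signalling, which drives smooth-muscle-type genes in many cells, changed in both directions. Of 17 genes, all tested, 9 rose, 5 fell and 3 did not pass. The share called was 82.4%, against 58.0% over all genes tested (28.7% higher and 29.3% lower). The list had a median log2 fold change of 0.20, against 0.01 over all genes tested. SMAD6, the gene of an inhibitory SMAD, rose to 33.5 ± 2.86 CPM in RARG-KO, against 9.89 ± 1.10 CPM in WT (SD, n = 3; log2 1.76 ± 0.08, SE; edgeR adjusted p = 1.81e-13). SMAD3, which carries the TGF-beta signal to the nucleus, rose to 622 ± 12.1 CPM in RARG-KO, against 497 ± 1.74 CPM in WT (log2 0.33 ± 0.03, SE; edgeR adjusted p = 2.35e-09), and SKI, a repressor of SMADs, by a log2 of 0.64 ± 0.04. The ligand gene TGFB2 fell to 34.6 ± 0.71 CPM in RARG-KO, against 68.6 ± 2.25 CPM in WT (log2 -0.99 ± 0.05, SE; edgeR adjusted p = 4.37e-13). TGFBR3, the gene of the co-receptor betaglycan (-1.82 ± 0.12), and LTBP2, a matrix protein gene (-1.42 ± 0.05), fell too (log2 ± SE).

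Among the epithelial and ductal markers, 7 of 9 tested genes fell and 2 rose, so all were called, against 58.0% of all genes tested. KRT8 and KRT18, which encode the keratin pair of simple epithelia, fell by log2 values of -1.10 ± 0.03 and -1.03 ± 0.03, and KRT19 by -2.11 ± 0.04 (log2 ± SE). KRT8 and KRT18 overlap on opposite strands. CDH1, the gene of E-cadherin, rose by 2.05 ± 0.12 and CLDN7 by 0.19 ± 0.06, and CLDN7 overlaps ELP5, which had 11017 reads against its 5930.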
